A study of Mus musculus with 13 samples.

Results

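BSF_C was compared with BSF across all genes in 5 of the 13 libraries of a mouse RNA sequencing study of feeding patterns. The members were chosen by their group label alone, which gave 3 libraries of BSF_C and 2 of BSF. BSF is breakfast-skipping feeding, in which food was given from ZT16 to ZT24 for 2 weeks (ZT is zeitgeber time, the hour of the light cycle). BSF_C is described in the labels only as breakfast skipping combined with control, and its feeding times, the sampling hour, and the strain and age of the mice are not given in the sources used here. The study also held 3 libraries of lunch skipping (LSF, with food at ZT12 to ZT16 and again ZT20 to ZT24), 2 of dinner skipping (DSF, food at ZT12 to ZT20) and 3 of the control group (con, feeding times not given in the sources used here). All mice shared 1 environment and cage, per the series' design text. The cells were jejunal epithelial cells sorted as positive for EpCAM, an adhesion molecule of epithelium, and lacking the leukocyte markers CD45, CD11b, CD3 and B220. The question addressed is how closely the epithelial programmes of these 2 breakfast-skipping groups agreed, and which differences in level the data exclude.

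The jejunal epithelium is a single layer of cells renewed from stem cells at the base of crypts. Most of its cells are enterocytes, which digest sugars and peptides at the brush border, take up lipids, and secrete lipids again as chylomicrons. Goblet, Paneth, enteroendocrine and tuft cells are its secretory and sensory lineages. Feeding time is known to set the phase of the epithelial clock, and lipid handling, oxidation of fatty acids and antigen presentation are programmes known to follow food or microbes in this tissue.

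The libraries held 7897016, 8269342 and 7793296 counts in BSF_C, against 7127769 and 8589351 counts in BSF. Epcam had 359, 335 and 358 CPM (counts scaled to a common library size by trimmed means) in BSF_C and 340 and 329 CPM in BSF. Markers of leukocytes were present at low level, with Ptprc, which encodes CD45, at 13.3, 16.9 and 17.9 CPM in BSF_C and 12.8 and 14.8 CPM in BSF. Pnlip, a pancreatic lipase, had 0 counts in all 5 libraries. Among the 9370 genes with a mean of at least 10 CPM, the median absolute log2 difference between 2 libraries was 0.0805 to 0.103 over the 6 pairs that joined a BSF_C to a BSF library, and 0.0831 to 0.0971 over the 4 pairs within a group. The spread of pairs between the groups thus overlapped that of pairs within them. No pair was a duplicate by its counts, since chi-square per degree of freedom was 1.63 to 2.35 between groups and 1.66 to 2.11 within groups. The labels call the libraries biological replicates without naming animals, so p-values reflect a spread of libraries and not a known spread of animals. That spread came from a fit to all 13 libraries of the study and from a prior shared across genes.

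Of 14300 genes tested, 19 differed between BSF_C and BSF at an adjusted p below 0.05 (0.133% of genes) by the quasi-likelihood test of edgeR (Benjamini-Hochberg over all genes). The call count rested on the method and the libraries: DESeq2 called 2, limma-voom 4 and edgeR with a robust prior 1, and 12 were called without BSF_C replicate 2. There were 15 genes higher in BSF_C (0.105%) and 4 lower (0.028%), and 573 genes (4.01%) had an unadjusted p below 0.05. To ask what was excluded, 2 one-sided tests were run per gene against a bound in each direction, with the larger p adjusted over all genes. By these tests 10427 genes (72.9%) lay within 1.5-fold of equality and 12642 (88.4%) within 2-fold. The median gene differed by 0.0834 on the log2 scale without its sign, and the median with its sign was 0.0045. Libraries of the 2 groups did not overlap for 3073 genes (21.5%), so a lack of overlap among 3 and 2 libraries was common here.

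How much was excluded followed the counts behind a gene. At a mean of 100 CPM or more, 99.9% of 2022 genes lay within 1.5-fold, and the median 95% interval reached 1.09-fold to either side of its estimate. From 10 to 30 CPM it was 96.4% of 3369 genes, with a median half-width of 1.22-fold. From 3 to 10 CPM 47.3% of 2499 genes lay within 1.5-fold and 95% within 2-fold. From 1 to 3 CPM the share within 1.5-fold was 0.166% and that within 2-fold 49.7% of 1809 genes, and below 1 CPM no gene of 622 lay within 1.5-fold. For these low genes a difference of 1.5-fold was not detectable at this depth, which is no evidence that it was absent.

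**Figure D1:**
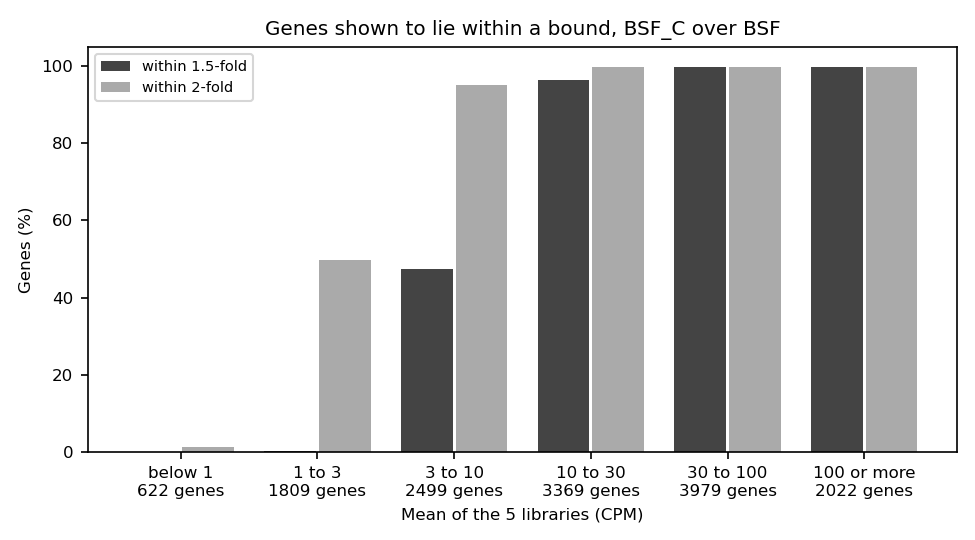
Bars give the percentage of genes (vertical axis, from 0) shown to lie within 1.5-fold (dark) or 2-fold (light) between BSF_C and BSF, for 6 ranges of the mean CPM of the 5 libraries (horizontal axis). From 10 to 30 CPM the dark bar stands at 96.4%, against 47.3% from 3 to 10 CPM.

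The epithelial programmes were described through 36 gene lists with 815 genes, of which 779 passed the filter on low counts and were tested. Of these 779 genes 684 (87.8%) lay within 1.5-fold and 751 (96.4%) within 2-fold, and 1, Ccn1, was called. Over all 14300 genes tested these shares were 72.9% and 88.4%, and 19 genes (0.133%) were called. A single call among 779 genes is thus not read as a trait of these lists. The median SE was 0.0875 in these lists and 0.129 over all genes, so tighter bounds came with better measured genes. The median log2 fold change over the 779 genes was 0.02, beside 0.0045 over all genes tested. The medians of single lists ran from -0.07 in the tuft cell list to 0.11 in the glucocorticoid target list. In 21 of the 36 lists every tested gene lay within 2-fold, and in 9 every tested gene lay within 1.5-fold. The lists were chosen with earlier results of these data known, and genes near the filter were kept by their counts in any group of the study.

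Genes of lipid absorption were at closely matched levels in BSF_C and BSF. Apoa4, an apolipoprotein of chylomicrons, had 14716, 14302 and 13470 CPM in BSF_C and 14045 and 14012 CPM in BSF, and these libraries overlapped. Its log2 fold change was 0.01 ± 0.05 (SE), with a 95% interval of 0.943 to 1.08-fold. Apob, the structural protein of chylomicrons, had 2465, 2552 and 2559 CPM in BSF_C and 2727 and 2837 CPM in BSF, so every BSF_C library stood below both BSF libraries. The difference of Apob was -0.14 ± 0.05 on the log2 scale, with an interval of 0.845 to 0.976-fold, and did not pass edgeR's quasi-likelihood test after Benjamini-Hochberg adjustment (adjusted p = 1). Mttp, which loads lipid onto Apob, had 0.931 to 1.07-fold as its interval. Over the list, 26 of 27 tested genes lay within 1.5-fold and all 27 within 2-fold, with a median log2 fold change of 0.02.

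The brush border enzymes and transporters of sugars and peptides agreed as narrowly. Lct, lactase, had 1540, 1452 and 1453 CPM in BSF_C and 1533 and 1512 CPM in BSF, with overlapping libraries and an interval of 0.901 to 1.05-fold. Sis, sucrase-isomaltase, had an interval of 0.899 to 1.05-fold, and the glucose transporters Slc5a1 and Slc2a2 had intervals of 0.954 to 1.11-fold and 0.914 to 1.07-fold. Slc15a1, the peptide transporter, had 61.2, 59.2 and 57.4 CPM in BSF_C and 52.1 and 61.7 CPM in BSF, and the BSF libraries enclosed the others. All 13 genes of the sugar list and all 25 of the peptide and amino acid list lay within 1.5-fold.

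Fuel metabolism showed no called gene, beside 0.133% called over all genes. Lists of this size would seldom hold a call at that rate, so the intervals carry the comparison. Cpt1a, which admits fatty acids to mitochondria, had 224, 206 and 223 CPM in BSF_C and 225 and 214 CPM in BSF, with an interval of 0.912 to 1.08-fold and overlapping libraries. Pdk4, a fasting-induced kinase that restrains glucose oxidation, had 28.9, 29.7 and 28.8 CPM in BSF_C and 24.9 and 31.0 CPM in BSF. The BSF_C values of Pdk4 lay between the BSF values, and its interval was 0.888 to 1.21-fold. Of the 30 tested genes of fatty acid oxidation and PPARA targets, 28 lay within 1.5-fold. The exceptions were Cyp4a10 and Eci2. Eci2, an isomerase that prepares unsaturated fatty acids for oxidation, had 13.4, 15.7 and 16 CPM in BSF_C and 17.9 and 22.0 CPM in BSF, with no overlap, and a log2 fold change of -0.41 that was not called by the quasi-likelihood test of edgeR after Benjamini-Hochberg correction (adjusted p = 1).

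Synthesis of lipid and glucose stood level as well. Fasn, the fatty acid synthase, had an interval of 0.918 to 1.1-fold. Pck1, which commits carbon to gluconeogenesis, had 56.7, 63.6 and 60.4 CPM in BSF_C and 54.5 and 60.2 CPM in BSF, with overlapping libraries and an interval of 0.941 to 1.17-fold. All 13 genes of gluconeogenesis and fasting regulators and all 18 of glycolysis lay within 1.5-fold, as did 24 of 25 genes of cholesterol synthesis and 13 of 14 of fatty acid synthesis.

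Xenobiotic enzymes agreed, with 37 of 41 tested genes within 1.5-fold. Cyp1a1, a target of the aryl hydrocarbon receptor, had 261, 240 and 244 CPM in BSF_C and 257 and 236 CPM in BSF, with overlapping libraries and an interval of 0.921 to 1.1-fold. Ahrr, the repressor of that receptor, had 0.491, 0.351 and 0.367 CPM in BSF_C and 1.48 and 1.23 CPM in BSF. The libraries of Ahrr did not overlap, and its log2 fold change of -1.70 ± 0.63 was not called by edgeR's quasi-likelihood test, Benjamini-Hochberg adjusted (adjusted p = 1), with an interval of 0.129 to 0.738-fold. Ahrr was named after its values were seen, as the epithelial gene with the lowest estimate among those with an interval. In iron and zinc handling 10 of 15 genes lay within 1.5-fold and 14 within 2-fold. Mt1, a metallothionein that binds zinc, had 11.5, 11.1 and 9.43 CPM in BSF_C and 11.8 and 14.5 CPM in BSF, without overlap, and a log2 fold change of -0.31 ± 0.16 whose interval of 0.643 to 1.02-fold did not exclude 1.5-fold.

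No clock gene was called between the groups, which says little for a short list when 0.133% of all genes were called. Per2, a repressor of the clock, had 67.1, 65.0 and 60.0 CPM in BSF_C and 66.1 and 71.0 CPM in BSF, with overlapping libraries and an interval of 0.832 to 1.05-fold. Arntl, the activator BMAL1, had 30.7, 28.2 and 26.8 CPM in BSF_C and 33.9 and 33.3 CPM in BSF. All BSF_C values of Arntl stood below the BSF values, and its log2 fold change of -0.23 ± 0.10 had an unadjusted p of 0.0286 and an adjusted p of 1 by the quasi-likelihood test of edgeR after Benjamini-Hochberg correction. Nr1d1, the repressor REV-ERB alpha, had an interval of 0.885 to 1.14-fold, and Dbp, a clock output factor, one of 0.746 to 1.29-fold. Of 17 core clock genes tested 13 lay within 1.5-fold and 16 within 2-fold. Per3, Bhlhe41, Rora and Ciart were not shown within 1.5-fold. Per3, named after its values were seen, had 9.83, 6.91 and 8.08 CPM in BSF_C and 9.56 and 13.5 CPM in BSF, with overlap. Its log2 fold change of -0.49 ± 0.19 had an interval of 0.548 to 0.919-fold and was not called. Ciart, the gene not shown within 2-fold, had 0.737 to 1.1 CPM in BSF_C and 0.808 and 0.557 CPM in BSF.

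Antigen presentation and interferon genes likewise held no called gene, and at 0.133% called over all genes few lists this short would hold any. Cd74, the chaperone of class II molecules, had 148, 136 and 137 CPM in BSF_C and 132 and 136 CPM in BSF, so that the lowest BSF_C value lay just under the highest BSF value. Its interval was 0.951 to 1.15-fold. H2-Ab1, a class II chain, had 53.3, 44.1 and 39.1 CPM in BSF_C and 42.5 and 44.0 CPM in BSF, and the BSF_C libraries enclosed the others. All 18 genes of MHC class I and the immunoproteasome lay within 1.5-fold, and 6 of 7 of class II. Of 44 interferon-stimulated genes 34 lay within 1.5-fold and 40 within 2-fold, with a median log2 fold change of -0.04. Oasl2, an antiviral protein, had 86.6, 91.1 and 86.6 CPM in BSF_C and 81.6 and 87.6 CPM in BSF, with overlapping libraries.

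Defence genes differed within narrow bounds where they had enough counts. Reg3b, an antimicrobial lectin, had 503, 482 and 470 CPM in BSF_C and 436 and 431 CPM in BSF, so that every BSF_C library stood above the BSF libraries. The difference of Reg3b was 0.16 ± 0.06 on the log2 scale, with an interval of 1.03 to 1.21-fold and an adjusted p of 1 by edgeR's quasi-likelihood test, Benjamini-Hochberg adjusted. Duox2, which makes hydrogen peroxide at the surface, had 15, 12.3 and 14.7 CPM in BSF_C and 11.4 and 14.6 CPM in BSF, with an interval of 0.868 to 1.3-fold. Pigr, the transporter of IgA, was held to 0.945 to 1.07-fold. Of the 20 tested antimicrobial genes 14 lay within 1.5-fold and 15 within 2-fold.

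**Figure D2:**
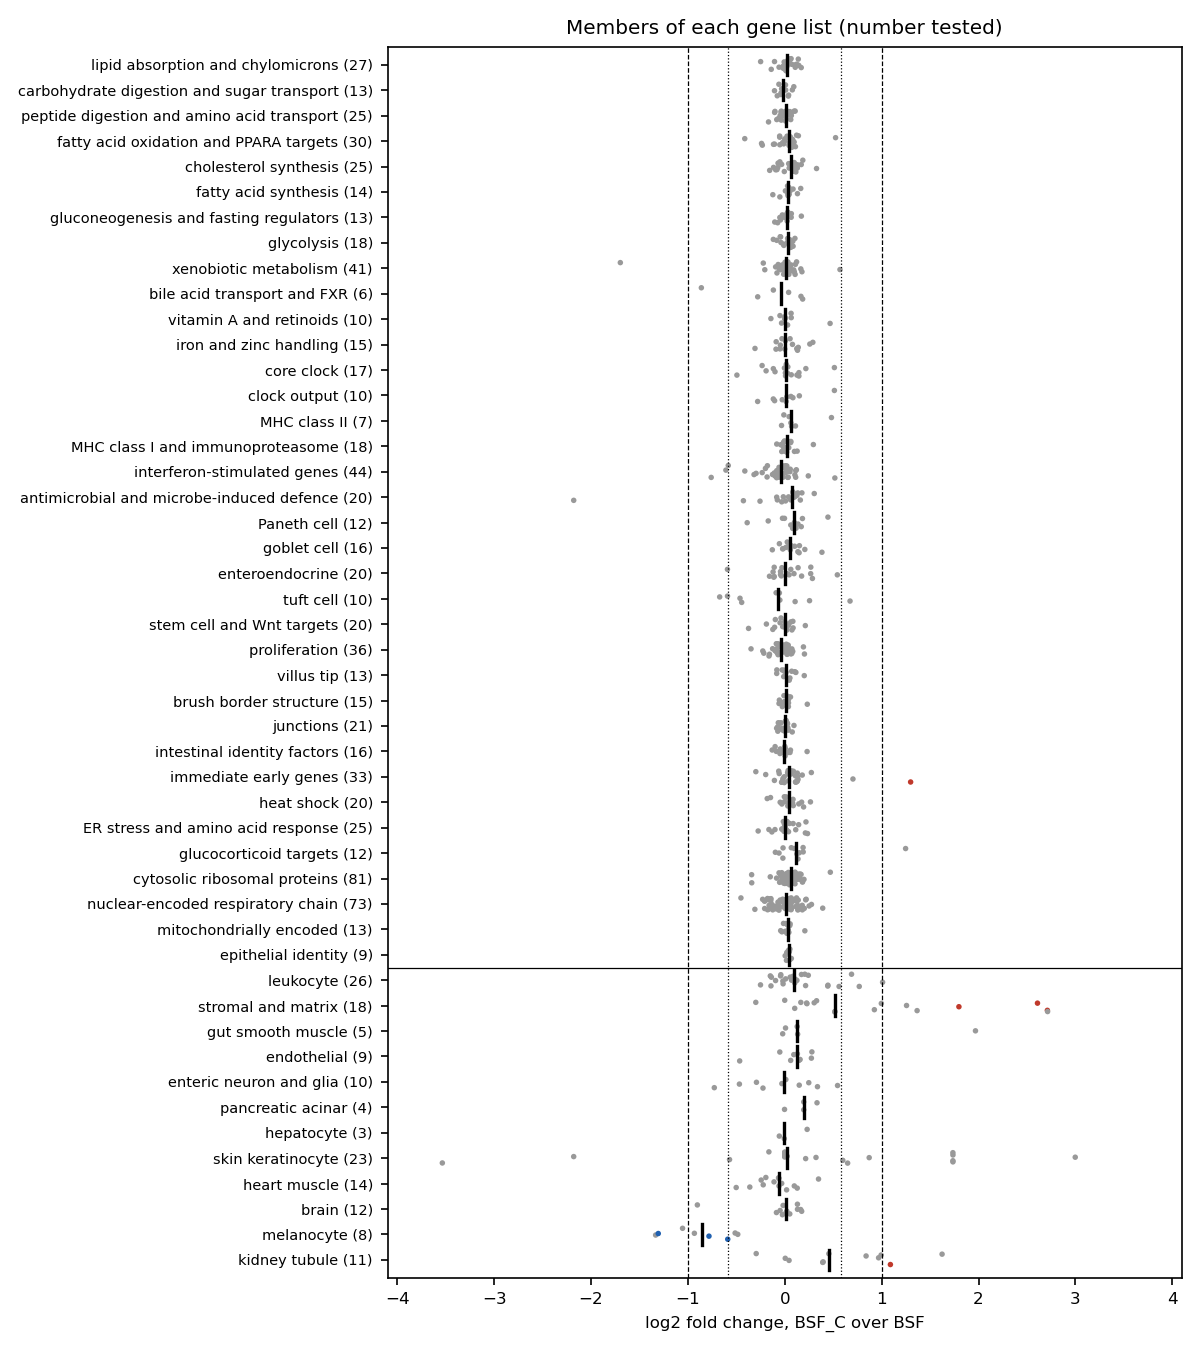
Points are the tested genes of each list (rows, with the number tested) at their log2 fold change of BSF_C over BSF (horizontal axis), black ticks are list medians, and dotted and dashed lines mark 1.5-fold and 2-fold. The 36 epithelial lists are above the solid line with medians from -0.07 to 0.11, while the stromal and matrix (0.52), kidney tubule (0.46) and melanocyte (-0.86) lists stand away from 0; red and blue points are called genes.

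The named markers of the cell lineages were at closely matched levels, apart from Lgr5 and genes of low count. Of the 12 tested Paneth cell genes 8 lay within 1.5-fold and 11 within 2-fold, beside 72.9% and 88.4% of all genes. Nupr1, Lyz2, Defa26 and Defa17 were not shown within 1.5-fold. Lyz1, the Paneth cell lysozyme, had 1435, 1472 and 1447 CPM in BSF_C and 1402.5 and 1378 CPM in BSF, without overlap and with an interval of 0.971 to 1.12-fold, and its reads may be shared with its close copy Lyz2. Muc2, the gel-forming mucin of goblet cells, had an interval of 0.947 to 1.12-fold, and Chga, a granule protein of enteroendocrine cells, one of 0.991 to 1.22-fold. Olfm4, a crypt-base marker, lay in 0.904 to 1.03-fold, and the proliferation marker Mki67 in 0.848 to 1.03-fold. Lgr5, the Wnt-dependent receptor of stem cells, had 16.2, 13.2 and 14.4 CPM in BSF_C and 18.4 and 19.4 CPM in BSF, with no overlap. The log2 fold change of -0.37 ± 0.13 was not called by the quasi-likelihood test of edgeR after Benjamini-Hochberg correction (adjusted p = 1), and the interval of 0.64 to 0.931-fold did not exclude 1.5-fold. The other 19 of the 20 stem cell genes lay within 1.5-fold, as did 34 of 36 proliferation genes. In bulk RNA, fewer cells of a type and less RNA per cell cannot be told apart.

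Among the lineage lists, that of tuft cells had the smallest share of genes within the bounds, as 3 of their 10 tested genes lay within 1.5-fold and 5 within 2-fold. The median level of the list was low, at 3.11 CPM. Over all genes, 0.166% lay within 1.5-fold and 49.7% within 2-fold from 1 to 3 CPM. From 3 to 10 CPM these shares were 47.3% and 95%, so the tuft cell count is not read as a trait of tuft cells. Pou2f3, the factor that specifies tuft cells, had 2.09, 2.22 and 2.57 CPM in BSF_C and 3.90 and 3.45 CPM in BSF, with no overlap. Its log2 fold change was -0.67 ± 0.33, its interval 0.399 to 0.989-fold and its adjusted p 1 by edgeR's quasi-likelihood test, Benjamini-Hochberg adjusted. Dclk1, a tuft cell kinase, and Trpm5, a taste channel of these cells, were held to 0.787 to 1.18-fold and 0.947 to 1.22-fold. The other tuft genes not shown within 2-fold were uncalled, with log2 fold changes of -0.59 for Alox5 and -0.46 for Hpgds, both without overlap, -0.44 for Alox5ap and 0.67 for Ptgs1, both with overlap. Among enteroendocrine genes 12 of 20 lay within 1.5-fold and 19 within 2-fold. Gip, an incretin hormone, met the 1.5-fold bound by a small margin (adjusted p = 0.0494 over all genes in the 2 one-sided tests from edgeR) and missed it under 7 of 16 alternatives.

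Housekeeping programmes were narrowly bounded. mt-Co1, a mitochondrially encoded subunit of cytochrome oxidase, was held to 0.956 to 1.06-fold, and all 13 mitochondrially encoded genes lay within 1.5-fold. Of 81 cytosolic ribosomal protein genes 76 lay within 1.5-fold and all within 2-fold, with a median log2 fold change of 0.06, and of 73 nuclear genes of the respiratory chain 62 and 73. The factors of intestinal identity Cdx2, Hnf4a and Gata4 had intervals of 0.923 to 1.09-fold, 0.935 to 1.08-fold and 0.924 to 1.09-fold. Fos, an immediate early factor that rises on handling and stress, had 202, 206 and 208 CPM in BSF_C and 193 and 204 CPM in BSF, with overlapping libraries. Hspa8, a constitutive chaperone, was held to 0.968 to 1.11-fold. Of 33 immediate early genes 27 lay within 1.5-fold and 30 within 2-fold.

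**Figure D3:**
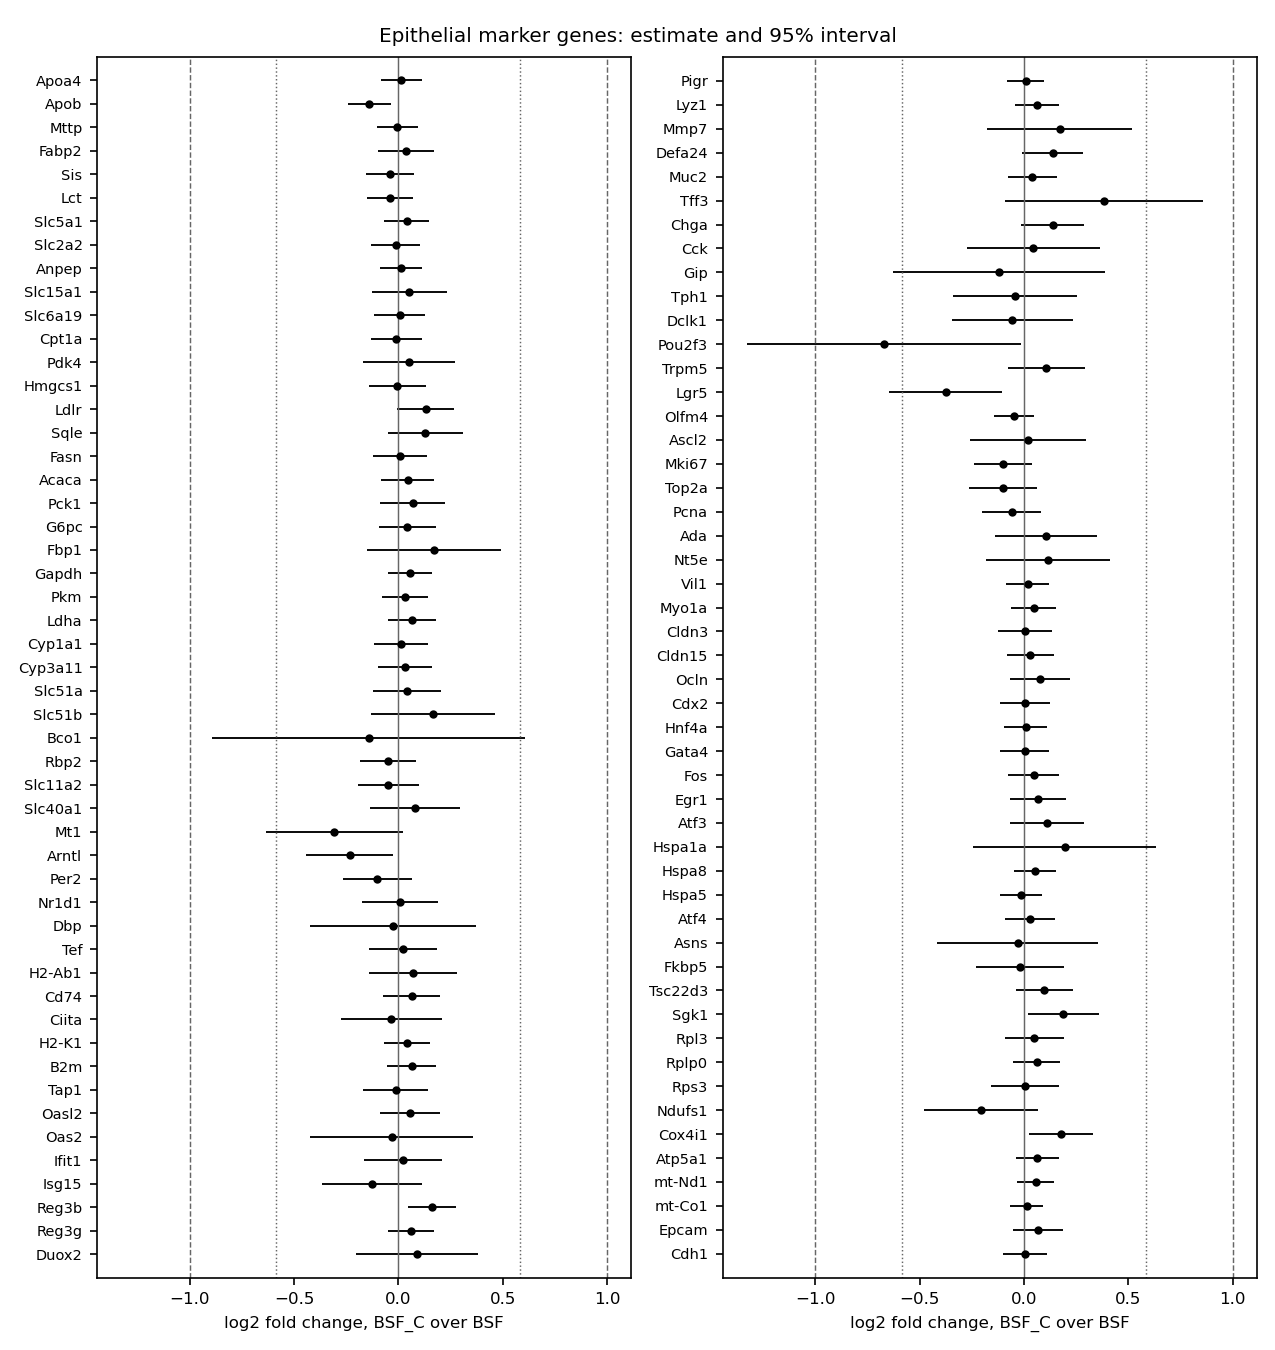
Points and bars give the log2 fold change of BSF_C over BSF and its 95% interval (horizontal axis) for 101 epithelial marker genes in the order of their lists, with dotted and dashed lines at 1.5-fold and 2-fold. By the one-sided tests 95 of the 101 genes lay within 1.5-fold, and Bco1, Mt1, Tff3, Pou2f3, Lgr5 and Hspa1a did not.

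Of the 28 epithelial genes not shown within 2-fold, 27 were uncalled and had a mean of at most 4.03 CPM over the 5 libraries. Cyp4a10, a fatty acid hydroxylase induced by PPARA, was the one with the most counts, at 3.44, 5.62 and 4.65 CPM in BSF_C and 3.63 and 2.79 CPM in BSF. The values of Cyp4a10 overlapped. S100a8 and Hephl1 had no interval because a whole group had 0 counts. The other member was Ccn1, which is described next.

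Ccn1 was the single called gene of the epithelial lists. It encodes a secreted matricellular protein and is an immediate early gene and a known target of YAP with TEAD factors. Its values were 22.1, 18.5 and 21.8 CPM in BSF_C and 9.56 and 7.47 CPM in BSF, so all 3 BSF_C libraries stood well above both BSF libraries. The log2 fold change was 1.30 ± 0.23, with an interval of 1.78 to 3.39-fold and an adjusted p of 3.95e-04 by the quasi-likelihood test of edgeR after Benjamini-Hochberg correction. Without BSF replicate 2 the adjusted p was 0.249. Ccn1 had 15.9 to 30.8 CPM in LSF, 14.2 to 31.4 CPM in DSF and 22.1 to 27.7 CPM in con, so the BSF libraries were below all other libraries of the study. The promoter of Ccn1 is shown because TEAD factors act at such sequences. It is the RefSeq window of 300 bases on GRCm38.p6, minus strand, chr3:145649936-145650235, with capitals at the only match to the TEAD motif GGAATG, read on the opposite strand.
Ccn1 promoter: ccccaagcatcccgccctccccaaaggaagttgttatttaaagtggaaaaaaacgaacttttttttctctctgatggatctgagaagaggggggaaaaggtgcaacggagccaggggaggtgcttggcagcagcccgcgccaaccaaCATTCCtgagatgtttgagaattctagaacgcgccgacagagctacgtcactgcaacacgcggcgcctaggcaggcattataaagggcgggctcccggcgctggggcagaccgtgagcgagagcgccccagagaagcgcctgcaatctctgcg
GGAATG was searched on both strands and occurs in 14.7% of the 32851 promoters of the table, and in 1 of the 15 promoter entries found for 12 of the called genes. A match is a description of letters, not of binding.

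Ccn2 had the largest called rise among genes of at least 5 CPM. Ccn2, a matricellular protein related to Ccn1 and also a YAP target, had 31.4, 30.4 and 21.5 CPM in BSF_C and 1.48 and 1.89 CPM in BSF. All BSF_C libraries were far above both BSF libraries. The log2 fold change of 4.01 ± 0.75 had an adjusted p of 1.28e-05 by edgeR's quasi-likelihood test, Benjamini-Hochberg adjusted, and an interval of 5.7 to 45.8-fold. In LSF the 3 libraries of Ccn2 ran from 5.91 to 46.1 CPM, a spread of 7.8-fold within 1 group, and in DSF the libraries had 32.5 and 4.88 CPM. The con libraries had 0.208 to 1.24 CPM.

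Thbs1, an adhesive glycoprotein released by platelets and fibroblasts, had 23.1, 21.7 and 8.45 CPM in BSF_C and 2.15 and 3.01 CPM in BSF. Its log2 fold change was 2.75 ± 0.50. For Thbs1 BSF_C replicate 3 was the lowest of its group and still above both BSF libraries. The adjusted p was 8.03e-05 by the quasi-likelihood test of edgeR after Benjamini-Hochberg correction. LSF libraries of Thbs1 ran from 6.52 to 36 CPM, a spread of 5.52-fold within 1 group, and DSF libraries had 12.9 and 8.18 CPM.

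Both chains of type I collagen were called higher in BSF_C. Col1a1 had 15.6, 13.3 and 5.88 CPM in BSF_C and 2.02 and 1.78 CPM in BSF, with a log2 fold change of 2.61 ± 0.49 and an adjusted p of 1.08e-04 by edgeR's quasi-likelihood test, Benjamini-Hochberg adjusted. Col1a2, the partner chain of type I collagen, had 7.86, 10.1 and 2.57 CPM in BSF_C and 0.673 and 1.34 CPM in BSF, and a log2 fold change of 2.71 ± 0.55. Its adjusted p was 3.95e-04 by the quasi-likelihood test of edgeR after Benjamini-Hochberg correction, and 0.115 without BSF replicate 1. Without BSF replicate 2 the Col1a2 difference was 3.31 on the log2 scale. Both collagens had BSF_C replicate 3 lowest, without overlap between groups. Within LSF, Col1a1 ran from 4.35 to 19.5 CPM and Col1a2 from 3.86 to 11.4 CPM, spreads of 4.49-fold and 2.96-fold.

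Lox, which crosslinks collagen, had 12.5, 18 and 6.98 CPM in BSF_C and 2.42 and 3.79 CPM in BSF, with a log2 fold change of 1.98 ± 0.33. Fn1, fibronectin, had 12.3, 17.3 and 8.57 CPM in BSF_C and 3.90 and 3.45 CPM in BSF, with a log2 fold change of 1.80 ± 0.30. The adjusted p was 5.14e-05 for Lox and 5.36e-05 for Fn1 by edgeR's quasi-likelihood test, Benjamini-Hochberg adjusted. Fscn1, an actin-bundling protein, had 7.86, 10.5 and 5.14 CPM in BSF_C and 2.02 and 3.23 CPM in BSF. The log2 fold change was 1.55 ± 0.32 and its adjusted p 0.00339 by the quasi-likelihood test of edgeR after Benjamini-Hochberg correction, which became 0.198 without BSF_C replicate 2 and 0.549 without BSF replicate 1. In these genes too BSF_C replicate 3 was the lowest of its group and the groups did not overlap. Their spreads within LSF were smaller than those of the collagens, at 1.86-fold for Lox, 1.83-fold for Fn1 and 1.68-fold for Fscn1.

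The called genes Fstl1, Ptgs2 and Cyp24a1 lay outside the rule for named genes and were named after their values were seen. Fstl1, a secreted glycoprotein of mesenchyme, had 11.9, 13.8 and 7.47 CPM in BSF_C and 6.60 and 4.01 CPM in BSF, with an adjusted p of 0.0198 by edgeR's quasi-likelihood test, Benjamini-Hochberg adjusted. The groups did not overlap, but the call was lost without BSF_C replicate 1 (adjusted p = 0.087), BSF_C replicate 2 (0.595) or BSF replicate 2 (1), each by edgeR with Benjamini-Hochberg adjustment. Ptgs2, the inducible cyclooxygenase, had 12, 12 and 16 counts in BSF_C and 1 and 1 in BSF. Its ratio over the groups was 13.2, with an exact 95% counting interval of 3.42 to 113, and its call (adjusted p = 0.0417 by the quasi-likelihood test of edgeR after Benjamini-Hochberg correction) was lost on leaving out any 1 of the 5 libraries, with adjusted p from 0.0548 to 1. Cyp24a1, which inactivates vitamin D, had 7, 16 and 15 counts in BSF_C and 1 and 0 in BSF, a ratio of 25.1 with a counting interval of 4.24 to 1016. Its adjusted p was 0.0423 by edgeR's quasi-likelihood test, Benjamini-Hochberg adjusted. Without BSF replicate 1 or 2 the call was lost, with log2 fold changes of 6.48 and 3.34. The call held without BSF_C replicate 1, and Cyp24a1 was not tested without BSF_C replicate 2 or 3. The counting intervals of Ptgs2 and Cyp24a1 cover counting error only.

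Markers of other cell types were measured beside these genes. Of the 18 genes in the stromal and matrix list, all were tested, 3 were called higher (Fn1, Col1a1 and Col1a2), 16 had an estimate above 0 and the median log2 fold change was 0.52, beside 0.0045 over all genes. The summed level of the list was 215, 238 and 174 CPM in BSF_C and 162 and 164 CPM in BSF. Every BSF_C sum was above the BSF sums, while LSF had 296 to 342 CPM, DSF 269 to 293 and con 23.7 to 26.4. These sums include Fn1, Col1a1 and Col1a2, so their lack of overlap is not evidence apart from those calls. Other members of the list had uncalled estimates from -0.30 (Lum) to 2.71 (Postn) on the log2 scale, with Bgn at 0.92, Loxl1 at 1.37 and Pdgfrb at 0.33. The members with the highest levels, Fbln1, Vim and Sparc, had smaller estimates of 0.10, -3.14e-04 and 0.17. Their means were 63.6, 42.5 and 36.3 CPM in BSF_C and 59.1, 42.8 and 32.4 CPM in BSF. Dcn, decorin, had 3.93, 3.86 and 2.82 CPM in BSF_C and 2.83 and 2.9 CPM in BSF, with overlap, and Pdgfra, the receptor of gut mesenchyme, had 2.7, 3.16 and 2.94 CPM in BSF_C and 2.96 and 2.12 CPM in BSF, also with overlap. The part of other cells in the matrix genes was not tested.

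A list of pigment cell genes held 3 of the 4 genes called lower in BSF_C, among 8 tested. Tyrp1, an enzyme of melanin synthesis, had 35.5, 21.5 and 25 CPM in BSF_C and 46.6 and 47.2 CPM in BSF. The groups did not overlap, and the log2 fold change was -0.78 ± 0.14 (adjusted p = 0.00105 by the quasi-likelihood test of edgeR after Benjamini-Hochberg correction). Without BSF_C replicate 2 or BSF replicate 2 the adjusted p of Tyrp1 was 0.0942 or 0.0826. Dct, which converts dopachrome in the same pathway, had 31.6, 20.4 and 25 CPM in BSF_C and 38.8 and 38.2 CPM in BSF. Its log2 fold change was -0.59 ± 0.13 (adjusted p = 0.0212 by edgeR's quasi-likelihood test, Benjamini-Hochberg adjusted), and the call was lost without any of 4 libraries, with adjusted p from 0.0902 to 0.795, while it held without BSF_C replicate 1. Both promoters are shown because the M-box bound by the pigment cell factor MITF has the core CATGTG, here in capitals on either strand. They are RefSeq windows of 300 bases on GRCm38.p6, at chr4:80833963-80834262 on the plus strand for Tyrp1 and chr14:118052197-118052496 on the minus strand for Dct.
Tyrp1 promoter: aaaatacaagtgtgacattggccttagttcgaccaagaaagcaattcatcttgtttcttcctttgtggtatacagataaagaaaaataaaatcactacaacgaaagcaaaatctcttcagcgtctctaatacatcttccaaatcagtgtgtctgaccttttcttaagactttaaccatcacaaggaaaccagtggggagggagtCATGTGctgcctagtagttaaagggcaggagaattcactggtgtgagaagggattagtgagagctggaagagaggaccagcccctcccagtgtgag
Dct promoter: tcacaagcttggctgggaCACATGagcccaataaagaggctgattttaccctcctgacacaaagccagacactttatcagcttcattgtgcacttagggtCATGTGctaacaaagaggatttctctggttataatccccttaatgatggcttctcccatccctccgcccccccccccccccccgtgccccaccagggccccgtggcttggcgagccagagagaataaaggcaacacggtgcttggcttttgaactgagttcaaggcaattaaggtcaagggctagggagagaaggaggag
CATGTG, searched on both strands, matches at 1 place in Tyrp1 and at 2 in Dct. It occurs in 14.2% of all 32851 promoters, and among the 15 promoter entries found for called genes these 2 hold it.

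Gpnmb, a melanosomal glycoprotein also made by macrophages, had 14.7, 8.19 and 10.5 CPM in BSF_C and 26.5 and 28.4 CPM in BSF, with BSF_C low in every library. The log2 fold change of -1.31 ± 0.18 had an adjusted p of 1.28e-05 by the quasi-likelihood test of edgeR after Benjamini-Hochberg correction. Pmel, the melanosome fibril protein, had 38.6, 25.2 and 28.0 CPM in BSF_C and 41.6 and 45.4 CPM in BSF, and was not called (adjusted p = 0.0666 by the same edgeR test). All 8 tested genes of the pigment cell list had an estimate below 0, with a median log2 fold change of -0.86. The sum of the list was 133, 83.7 and 95.9 CPM in BSF_C and 170 and 178 CPM in BSF, against 162 to 237 in LSF, 142 to 200 in DSF and 18.7 to 21.4 in con. This sum includes the called genes Tyrp1, Dct and Gpnmb. Tyrp1 and Gpnmb had 0 CPM in every con library. The part of pigment cells in these values was not tested. Gask1b, a secreted Golgi-associated protein, was the remaining gene lower in BSF_C, at 5.16, 4.1 and 2.08 CPM in BSF_C and 7.40 and 9.36 CPM in BSF. Its adjusted p of 0.0383 by edgeR's quasi-likelihood test, Benjamini-Hochberg adjusted, was 0.105 to 1 on leaving out any 1 library other than BSF_C replicate 1.

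Gpx3, Spp1 and Havcr1, also higher in BSF_C, are known from kidney tubules. Gpx3, the secreted glutathione peroxidase made in large amounts by kidney, had 51.1, 98.2 and 92.6 CPM in BSF_C and 44.0 and 32.4 CPM in BSF. BSF_C replicate 1 stood close to BSF replicate 1, and the other BSF_C libraries far above. The log2 fold change was 1.09 ± 0.16, with an adjusted p of 1.8e-05 by the quasi-likelihood test of edgeR after Benjamini-Hochberg correction. Spp1, osteopontin, had 35.3, 95.7 and 86.3 CPM in BSF_C and 34.9 and 15 CPM in BSF, and here BSF_C replicate 1 stood just above BSF replicate 1. Its log2 fold change was 1.58 ± 0.24 and its adjusted p 3.1e-05 by edgeR's quasi-likelihood test, Benjamini-Hochberg adjusted. Without BSF replicate 2 the adjusted p of Spp1 was 0.186 and the log2 fold change 1.06, and without BSF replicate 1 the log2 fold change was 2.27.

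Havcr1, a receptor for apoptotic cells known as an injury marker of kidney tubules, had 4.05, 6.20 and 7.22 CPM in BSF_C and 0.808 and 0.223 CPM in BSF, without overlap. For Havcr1 the log2 fold change of 3.53 ± 0.77 had an adjusted p of 1.67e-04 by the quasi-likelihood test of edgeR after Benjamini-Hochberg correction, and 0.176 without BSF replicate 2. Its size was 2.82 without BSF replicate 2 and 4.6 without BSF replicate 1. Within LSF, Havcr1 ran from 0.362 to 5.45 CPM, a spread of 15-fold, beside 1.93-fold for Spp1 and 1.4-fold for Gpx3. Umod, the uromodulin of the kidney's thick ascending limb, had 0.983, 7.84 and 10.2 CPM in BSF_C and 4.31 and 4.9 CPM in BSF, so BSF_C replicate 1 was below and the other BSF_C libraries above both BSF libraries. The kidney tubule list summed to 122, 190 and 195 CPM in BSF_C and 121 and 112 CPM in BSF, with 159 to 164 in LSF, 139 to 152 in DSF and 83.4 to 122 in con. These sums include Gpx3, with means of 80.6 CPM in BSF_C and 38.2 CPM in BSF. Of the list's 11 tested genes 1 was called, Gpx3, and 10 had an estimate above 0. Slc5a2, with means of 47.5 CPM in BSF_C and 46.2 CPM in BSF, had a log2 fold change of 0.04. Cubn stood at 0.005 and Slc12a1 at -0.29, and the other uncalled members ran from 0.39 (Lrp2) to 1.62 (Slc12a3). The part of kidney RNA in these values was not tested.

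The order of BSF_C libraries split the called genes. Of the 15 higher genes, 9 were lowest in BSF_C replicate 3, 4 in BSF_C replicate 1 and 2 in BSF_C replicate 2. The 9 included Ccn2, Thbs1, Col1a1, Col1a2, Lox, Fn1, Fscn1 and Fstl1, and the 4 were Spp1, Gpx3, Havcr1 and Cyp24a1. All 4 lower genes were highest in BSF_C replicate 1. In con, 15 of the 19 called genes had at most 1.5 CPM in every library, and Ccn1, Gpx3, Thbs1 and Fstl1 were the others. The share of all tested genes at that level is not given here, so the count is a description only.

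**Figure D4:**
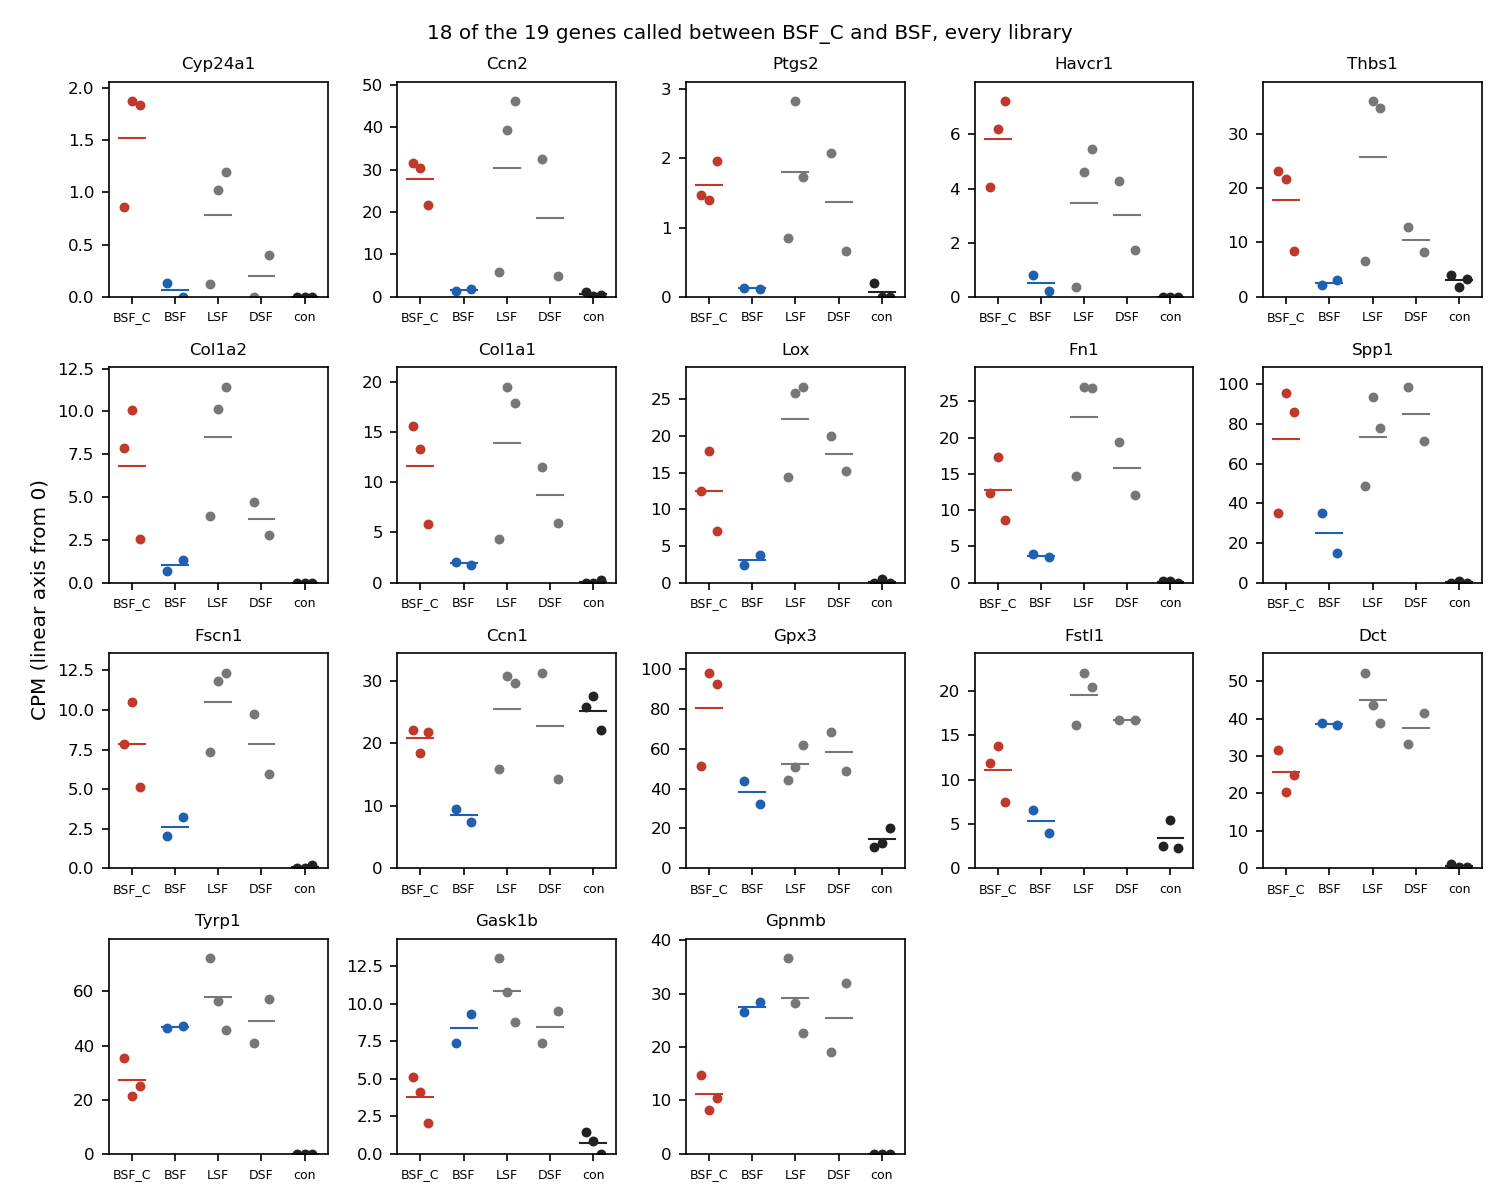
Points give the CPM (vertical axes, linear from 0) of 18 of the 19 called genes in every library of BSF_C, BSF, LSF, DSF and con, and bars give group means, with 3, 2, 3, 2 and 3 libraries. The BSF mean stands below that of BSF_C in all panels but those of Dct, Tyrp1, Gask1b and Gpnmb, and the LSF libraries of Ccn2 spread from 5.91 to 46.1 CPM.

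No gene of the other 9 lists of cell types and tissues was called, beside 0.133% called over all genes. The leukocyte list summed to 353, 385 and 367 CPM in BSF_C and 337 and 366 CPM in BSF, with overlap, and none of its 26 tested genes was called by edgeR's test. Myh6, a heart muscle myosin, had 55.9, 65.5 and 59.6 CPM in BSF_C and 56.8 and 56.1 CPM in BSF, and Mbp, a myelin protein, had 145, 154 and 145 CPM in BSF_C and 141 and 145 CPM in BSF. Myh6 overlapped between the groups, and the lowest BSF_C value of Mbp was just above the highest BSF value. Over the 12 lists of other cell types and tissues, 143 genes were tested, 7 were called (4 higher and 3 lower), and 74 (51.7%) lay within 2-fold. Over all genes 0.133% were called and 88.4% lay within 2-fold. The skin keratinocyte list gave 23 tested genes, with a median of 0.0246 CPM in the 5 libraries. Many members were thus near the floor, and the lower share within 2-fold is not read as a disagreement. The median 95% interval in these lists reached 1.95-fold from equality, beside 1.19-fold in the epithelial lists and 1.28-fold over all genes.

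Among genes of at least 100 CPM, 3 were not shown within 1.5-fold, and they are named after their values were seen. Cmss1, a ribosomal small subunit homologue, had 170, 187 and 236 CPM in BSF_C and 521 and 179 CPM in BSF. Filip1l, on the opposite strand at chr16:57353093-57573126 (GRCm38) inside the span of Cmss1, had 169, 186 and 235 CPM in BSF_C and 520 and 177 CPM in BSF. Reads of these 2 genes could not be told apart, since the strand used in counting is not given in the sources used here. Zc3h7a, a zinc finger protein, had 220, 225 and 258 CPM in BSF_C and 495 and 199 CPM in BSF. In all 3 genes BSF replicate 1 was high and BSF replicate 2 stood within or just below the range of the BSF_C libraries, and none was called by edgeR's quasi-likelihood test, Benjamini-Hochberg adjusted (adjusted p from 0.0659 to 0.0918).

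**Figure D5:**
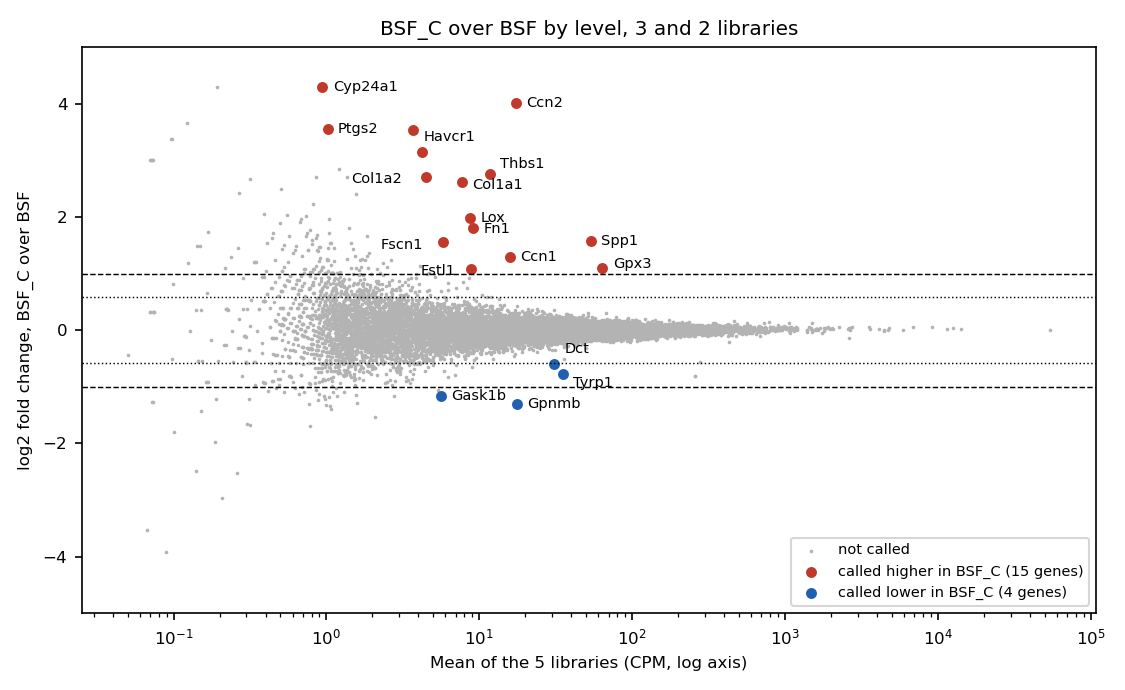
Each point is a gene, with the log2 fold change of BSF_C over BSF (vertical axis) against its mean CPM in the 5 libraries (horizontal log axis), and genes with a mean of at most 0.05 CPM are left off. Dotted and dashed lines mark 1.5-fold and 2-fold, 15 genes called higher are red, 4 called lower are blue, and the cloud narrows with level.

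For scale, the same fit gave 2271 called genes (15.9%; 8.97% higher and 6.91% lower) for LSF against DSF, which has the same numbers of libraries as BSF_C against BSF and shares none of them. In LSF against DSF 8853 genes (61.9%) lay within 1.5-fold and the median absolute log2 fold change was 0.173. BSF against con, which shares the BSF libraries, gave 10040 called genes (70.2%; 38.3% higher and 31.9% lower), with 2899 (20.3%) within 1.5-fold and a median absolute log2 fold change of 0.627. Of the 19 genes called between BSF_C and BSF, Thbs1 and Col1a2 were among those also called higher in LSF than in DSF, with log2 fold changes of 1.27 and 1.17.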

How the data were processed

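Polyadenylated RNA of sorted jejunal epithelial cells was sequenced, per the labels. The authors deposited raw counts per gene for 21868 gene symbols in 13 libraries. STAR 2.7.2e, FastQC 0.11.8, DESeq2 1.32.0, cutadapt 2.9 and builds GRCm38 and mm10 are named per the submitters' processing notes; the counting rule and strand are not given in the sources used here, and near-identical and overlapping genes are uncertain. Symbols matched GENCODE M21 for 99.5%.

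edgeR 4.0.16 (R 4.3.3) kept 14300 genes by filterByExpr (99.9% of counts), scaled libraries by trimmed means and fitted group alone to the 13 libraries, which left 8 residual degrees of freedom. The quasi-likelihood test was two-sided with Benjamini-Hochberg adjustment at 0.05. SEs and 95% intervals of log2 fold changes came from the fitted contrast. Genes were called within a fold when both one-sided tests passed after adjustment, and 93 genes with no count in a whole group had no interval. The procedure was run on simulated counts that gave every gene the same spread, so it does not speak for genes that vary more between libraries. The alternatives used DESeq2 1.42.0 and limma 3.58.1, other filters, scalings and sets of libraries, and left out each library in turn.

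Named genes were up to 12 called genes per direction that did not overlap between groups and reached 5 CPM in the higher one, up to 3 called genes of a list with 2 or more, the marker genes of each list, and the 5 most abundant genes; genes named otherwise are said to be so. The members and the 48 gene lists were chosen with earlier results of these data known. Replicate numbers were not taken as pairs. DSF columns were mapped to their group only. Some genes taken by the rule are left out of the text. Reads were not analysed here.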

Additional observations from a re-analysis of the deposited data

How the results depend on the processing

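The count of 19 called genes depended on the processing. It was 2 with the Wald test of DESeq2 (Fn1 among them), 4 with limma-voom (Spp1, Gpx3, Gpnmb and Tyrp1), 30 with no filter on low counts (18346 genes tested), 32 with only the BSF_C and BSF libraries in the fit, 29 with the con libraries left out, and 10 with genes of other cell types left out, which removes 7 called genes by construction. Leaving out 1 library gave 12 to 23 called genes, with 12 without BSF_C replicate 2. A robust prior, chosen after seeing the data, left 1 (Fscn1). Apart from the lists left out, the cause was not tested. With DESeq2 size factors it was 19, with library totals alone 14 and with libraries thinned to 1 depth 18. With the replicate number as a block, in the 5 libraries, 52 genes were called, of which 18 were among the 19. The deviations of same-numbered libraries correlated at 0.0171 across 9370 genes, with only 2 shared numbers, so the block is no pairing of the design.

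The counts within 1.5-fold stayed between 8816 and 10695 and within 2-fold between 11554 and 12780 under the alternatives run. None of the 19 called genes changed sign, and none kept its call under every alternative: 208 of 295 values did. Of 115 other named genes, 101 stayed on the same side of the 1.5-fold bound throughout. Depth limits what can be excluded below 3 CPM. At most 52.9 degrees of freedom stood behind a gene's spread. Of these, 44.9 came from the prior shared across genes and up to 8 from the libraries of all groups.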
